A study of Drosophila melanogaster with 4 samples.

Results

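Broad H2Av domains are the regions of at least 10000 bp in the authors' list of H2Av-enriched regions for the replicate set, which was given as a single result for both ChIP replicates. There were 696 of them among 6065 regions (11.5%), after leaving out 1 region marked as depleted. The list came from ChIP-seq of S2-DRSC cells, a cultured Drosophila melanogaster line of male, late embryonic origin, with a rabbit antibody raised against a peptide of H2Av. All 4 samples (2 ChIP and 2 input DNA) came from cells treated with double-stranded RNA against H2Av, 50 µg first and 200 µg after passage, so the group has no untreated counterpart here. The H2Av level left after treatment and the cell line's identity cannot be read from lists of regions, and whether the 2 replicates came from separate cultures is not stated in the labels. The members were chosen by their width in this list, so their widths, and every value from the same list, are a description and carry no test.

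H2Av is the H2A variant of flies. It does the work that other animals divide between H2A.Z, a variant of nucleosomes near transcription start sites, and H2A.X, which is phosphorylated at DNA breaks, and in flies it has also been linked to heterochromatin formation. A region in these lists is a stretch over which the ChIP signal was called as enriched, and a broad one runs over many neighbouring nucleosomes. With H2Av targeted by RNA interference, the regions mark where the antibody still enriched DNA, and whether they mark remaining H2Av was not tested.

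The broad domains held 11.2 of the 30.8 Mb covered by the list, or 36.3%, although they were 11.5% of its regions. Their median width was 13892 bp, with quartiles of 11502.5 and 18210 bp. Most lay close to the lower limit: 275 reached 15000 bp, 127 reached 20000 bp, 38 reached 30000 bp, 14 reached 40000 bp and 3 reached 50000 bp. The limit cut through a continuous range of widths. Just inside it were domains of 10001 bp on X (14724674 to 14734674, score 1.64), 10007 bp on 3R (22940516 to 22950522, 1.79) and 10011 bp on 2R (1567530 to 1577540, 1.25). Just outside were regions of 9995 bp on 3R (21039396 to 21049390, 1.46), 9991 bp on X (19136114 to 19146104, 1.50) and 9991 bp on 3L (16075330 to 16085320, 1.55). Positions here and below follow FlyBase release 5. No annotation or sequence of that release was used, so genes and sequences under the domains are not given.

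**Figure D1:**
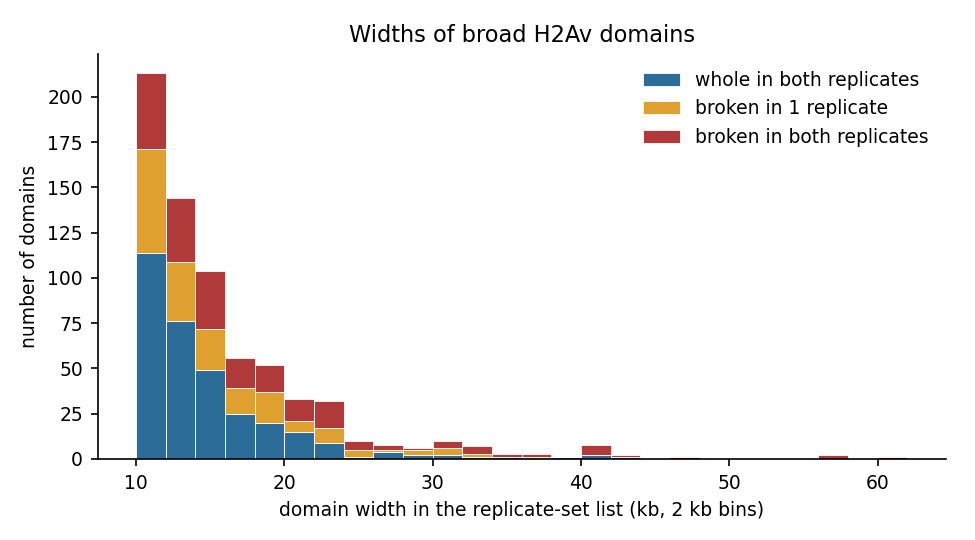
Number of broad domains by width in the replicate-set list, in 2 kb bins, stacked by whether each replicate list held 1 region (whole) or several (broken) at the domain. Most domains lie near the lower limit of 10000 bp, and 127 of 696 reached 20000 bp.

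Each replicate's own list held fewer regions this wide. Replicate 1 had 487 and replicate 2 had 474 (mean 480.5 ± 9.19, SD, n = 2), against 696 in the replicate set. They made up 29.7% and 29.0% of the sequence covered in their lists. Nearly all overlapped a replicate-set domain by at least 1 bp: 483 of 487 in replicate 1 and 473 of 474 in replicate 2. In the other direction, 400 of the 696 domains (57.5%) overlapped a region of at least 10000 bp in both replicates, and 174 (25.0%) overlapped none in either. The replicate-set list was given for the same 2 ChIP samples, so this overlap is built in and was not tested.

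All 696 domains overlapped at least 1 region in each replicate, against a background of 65.7% over the 6065 regions of the list. This was not particular to the domains. Of the 1325 regions of 5000 to under 10000 bp, 9 were in only 1 replicate and 1 in neither. Of the 1716 regions under 2000 bp, 70.2% were in neither. Replicate regions covered 93.1% of the domains' summed length in replicate 1 and 92.2% in replicate 2 (mean 92.6% ± 0.668, SD, n = 2). Regions of 5000 to under 10000 bp, the next narrower class (1325 regions), were covered to 88.0% and 86.1%. At least 90% of the domain was covered in both replicates in 431 domains (61.9%). Under 50% was covered in at least 1 replicate in 6 domains.

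Many domains did not stand whole in the replicates. Exactly 1 region in each replicate matched 323 domains (46.4%), against a background of 52.8% of all 6065 regions. The Wilson 95% interval of the 46.4%, 42.7 to 50.1, covers counting error only. It takes the domains as independent, which they are not, and carries no test. Another 173 domains (24.9%) were broken into 2 or more regions in only 1 replicate, against a background of 7.57%, and 200 (28.7%) in both, against 5.36%. Of the 173, replicate 1 broke 77 and replicate 2 broke 96. The background includes 1323 regions that neither replicate held and 758 held by 1 replicate, mostly narrow. These cannot be whole or broken in both. By width, 72.2% of the 1325 regions of 5000 to under 10000 bp were whole in both. The share was 79.4% of the 2328 regions of 2000 to under 5000 bp and 4.20% of the 1716 under 2000 bp.

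Breaking followed width. Regions of 2000 to under 5000 bp were broken in both replicates in 0.258% of 2328 cases, and those of 5000 to under 10000 bp in 8.98% of 1325. Domains of 10000 to under 15000 bp were broken in both in 24.2% of 421 cases, those of 15000 to under 20000 bp in 26.4% of 148, and those of 20000 bp or more in 46.5% of 127. Per unit of length the classes from 5000 bp up were closer, and the class of 2000 to under 5000 bp was not counted this way. Breaks numbered 0.366 ± 0.0275, 0.331 ± 0.0360 and 0.356 ± 0.0425 per 10000 bp in these 3 classes of domains (SD, n = 2 each), and 0.273 ± 0.0114 in regions of 5000 to under 10000 bp. The means of the 3 classes of domains differed by no more than about their replicate SD. That SD includes a shift shared by all classes, since replicate 2 was higher in each. Within each replicate the class of 15000 to under 20000 bp was the lowest of the 3. It had 0.305 against 0.346 and 0.326 in replicate 1, and 0.356 against 0.385 and 0.386 in replicate 2.

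**Figure D2:**
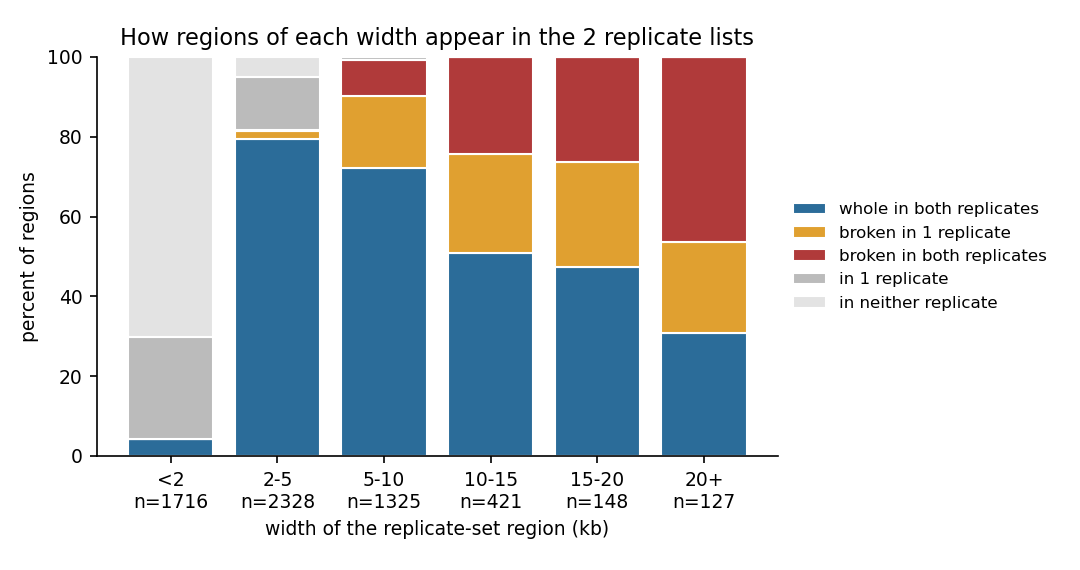
Percent of replicate-set regions of each width (kb, with the number of regions under each bar) that were whole in both replicate lists, broken in 1 or in both, or present in 1 or neither. The share broken in both rises from 8.98% at 5000 to under 10000 bp to 46.5% at 20000 bp or more, while regions absent from a replicate are almost all under 5000 bp.

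Most breaks were short. Replicate 1 had 370 breaks inside 277 domains and replicate 2 had 424 inside 296. Their median length was 306 bp in replicate 1 and 348 bp in replicate 2, and 37.6% and 34.4% were under 200 bp. Breaks over 1000 bp were 20.3% and 22.4% of them, with the longest at 8909 and 4190 bp. In replicate 1, 170 breaks (45.9%) overlapped or touched a break of replicate 2, and in replicate 2, 172 (40.6%) did so with one of replicate 1. Within domains that the other replicate also broke, the shares were 59.6% of 285 breaks in replicate 1 and 56.0% of 307 in replicate 2. The shared breaks had medians of 385 and 554 bp, against 245.5 and 289 bp for the others. A longer break meets another more easily by construction, so this difference carries no test. Closing breaks of up to 200 bp raised the whole domains from 323 to 408 (58.6%), so part of the breaking rests on gaps that short.

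Where a replicate broke a domain, the longest piece covered a median of 59.9% of it in replicate 1 (277 domains, quartiles 49.6% and 70.1%) and 58.0% in replicate 2 (296 domains, 47.7% and 68.9%). It held over 50% of the length in 205 of the 277 and in 200 of the 296. At widths of 20000 bp or more the medians were 62.5% over 69 broken domains and 63.8% over 78. Over all 696 domains, whole ones included, the median was 91.1% in replicate 1 and 87.1% in replicate 2. Across the 696 domains, the longest piece had a Spearman correlation of 0.802 between the replicates and the number of pieces one of 0.535. Domains are not independent replicates and their widths are shared by both measures, so these describe the lists only.

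The edges of whole domains were nearly the same in all lists. In the 323 domains with 1 region in each replicate, the replicate region began a median of 90 bp inside the domain in replicate 1 and 114 bp in replicate 2. It ended 107 and 130 bp inside. The replicate region was a median of 98.0% and 97.4% as wide as the domain, and in 289 and 282 of the 323 it reached 10000 bp itself. Larger shifts existed: at the left edge, the 90th percentile was 823.6 bp in replicate 1 and 1032.8 bp in replicate 2. Replicate regions rarely joined domains, as 1 in each list spanned a pair of domains (X 2606207 to 2635540 in replicate 1 and X 18711581 to 18719540 in replicate 2).

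The authors' score was higher in broad domains than in narrower regions and had almost no relation with width among the domains. It is each region's own value with no stated formula, and is used here only within a list. The median was 1.47 in the domains (quartiles 1.23 and 1.70) and 0.72 in the 5369 narrower regions, and 93.8% of domains lay above the list's median. Against the 3288 narrower regions that both replicates held, whose median was 1.16, the difference was 0.31 rather than 0.75. In each replicate's own list, regions of at least 10000 bp had medians 0.48 and 0.47 above the narrower ones. Over the whole list, width and score had a Spearman correlation of 0.686, but among the 696 domains it was -0.0133, with 0.0428 and 0.0579 among the wide regions of the replicates. Medians were 1.48, 1.48 and 1.45 at 10000 to under 15000, at 15000 to under 20000 and at 20000 bp or more, against 1.31 at 5000 to under 10000 bp.

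Domains that stayed whole scored higher than those that broke. The median score was 1.64 for the 323 whole domains (quartiles 1.42 and 1.84), 1.36 for the 173 broken in 1 replicate (1.16 and 1.61) and 1.27 for the 200 broken in both (1.04 and 1.48). The ranges overlapped widely, from 0.70 to 2.40 in whole domains and from 0.51 to 2.21 in those broken in both. When the domains were ranked by score into 4 equal groups of 174, the whole share was 18.4% in the lowest, 34.5% and 59.2% in the next, and 73.6% in the highest. The median widths of these groups were alike, at 14055, 13705, 13466 and 14115 bp. Score and breaking come from the same ChIP samples, so the difference carries no test.

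In the 200 domains broken in both replicates, the highest-scored piece of a domain had a median of 1.48 in replicate 1 and 1.57 in replicate 2. The single regions of whole domains had medians of 1.65 and 1.70. The lowest-scored pieces had medians of 0.79 and 0.78, and a lowest piece is below the highest by definition. Averaged by width over its pieces, a domain scored 1.50 in replicate 1 and 1.55 in replicate 2 at the median. The replicates ranked the domains alike, with a Spearman correlation of 0.958 across 696 domains. Replicate 2 was higher in 466 of them, by a median of 0.04 over all domains (SD across domains 0.10).

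**Figure D3:**
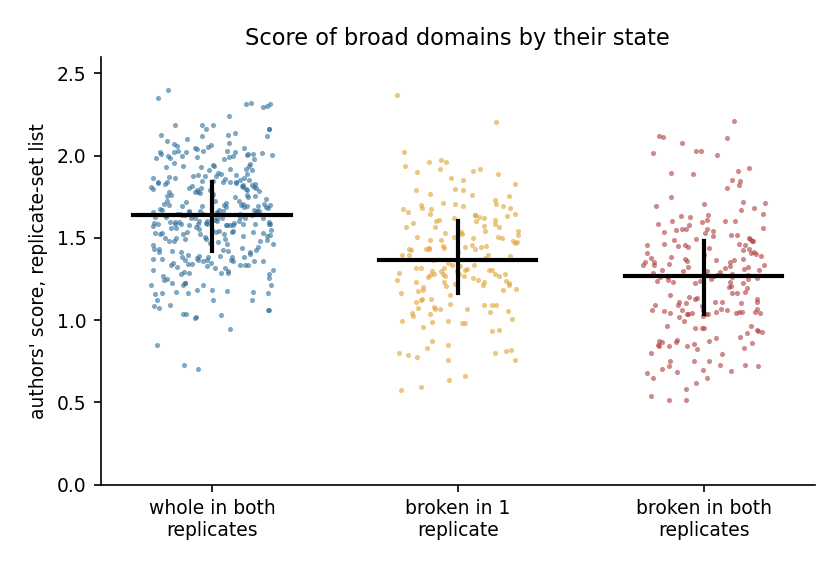
The authors' score of each of the 696 broad domains in the replicate-set list (points), by whether the domain was whole or broken in the replicate lists, with the median (horizontal line) and the quartiles (vertical line). Medians fall from 1.64 in whole domains to 1.27 in those broken in both, with wide overlap.

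Placement differed between arms. Arm 2R held 154 domains, or 7.28 per Mb, ahead of 3R (146, 5.23 per Mb), X (114, 5.08), 2L (108, 4.69) and 3L (109, 4.44). The replicates' own lists gave 5.30 ± 0.201 per Mb on 2R, 3.76 ± 0.0307 on 2L, 3.49 ± 0.127 on 3R, 3.12 ± 0.0631 on X and 2.81 ± 0.0576 on 3L (SD, n = 2 each). Arm 2R came first and 3L last in all 3 lists, in the replicates' own lists by more than the replicate SD. The order of 2L, 3R and X changed with the list, since 2L came second in the replicates and after 3R and X in the replicate set. Domains covered 11.6% of 2R and 7.00% to 8.82% of the other arms. Regions of all widths were also densest on 2R, with 1131 in 21.1 Mb. There were 1231 in 27.9 Mb on 3R, 1017 in 22.4 Mb on X, 935 in 23.0 Mb on 2L and 1089 in 24.5 Mb on 3L. Domains were 13.6% of the regions on 2R and 10.0% to 11.9% on the other arms.

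The X of this line of male origin, on which genes are dosage compensated, had a domain density 0.950 times that of the autosomal arms. The copy number of X and of the other arms in these cells is not given in the labels. The same ratio was 0.827 in replicate 1 and 0.826 in replicate 2. X domains had the highest median score of the arms, 1.64, against 1.53 on 3R, 1.52 on 2R, 1.49 on 2L and 1.40 on 3L. Narrower regions on X also had the highest median of the arms, 0.86, against 0.67 to 0.71, and the difference between the 2 medians on X (0.77) lay within that of the other arms: 0.69 on 3L, 0.82 on 2L, 0.84 on 2R and 0.85 on 3R. The depth of reads on X relative to the autosomes is unknown, and its part in these values was not tested.

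Chromosome 4, the small autosome rich in repeats, had the densest domains. It held 20, or 14.8 per Mb, which covered 29.0% of its length, and each replicate's own list held 14 regions as wide. Regions of all widths were dense there too, with 115 in 1.35 Mb against 5403 in 119 Mb of the arms. Domains were 17.4% of the regions on chromosome 4 and 11.7% on the arms. The median score of the domains, 1.09, was below that of any of the 5 arms. Narrower regions on chromosome 4 were also lower, at 0.58 against 0.67 to 0.86 on the arms. Of the 20, 9 were whole and 9 were broken in both replicates.

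Heterochromatic scaffolds held 41 domains, or 4.42 per Mb, and the unplaced sequence U held 4. The 41 were 17 on 3LHet, 15 on 2RHet, 5 on 3RHet, 2 on 2LHet and 2 on XHet, with none among the 7 regions of YHet. Their median score was 1.13, and that of narrower regions on these scaffolds was 0.56, against 0.74 on the arms. Of the 41 domains, 18 (43.9%) were broken in both replicates, against 172 of 631 (27.3%) on the arms. The mappable share of these scaffolds is not known, and its part in these values was not tested.

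**Figure D4:**
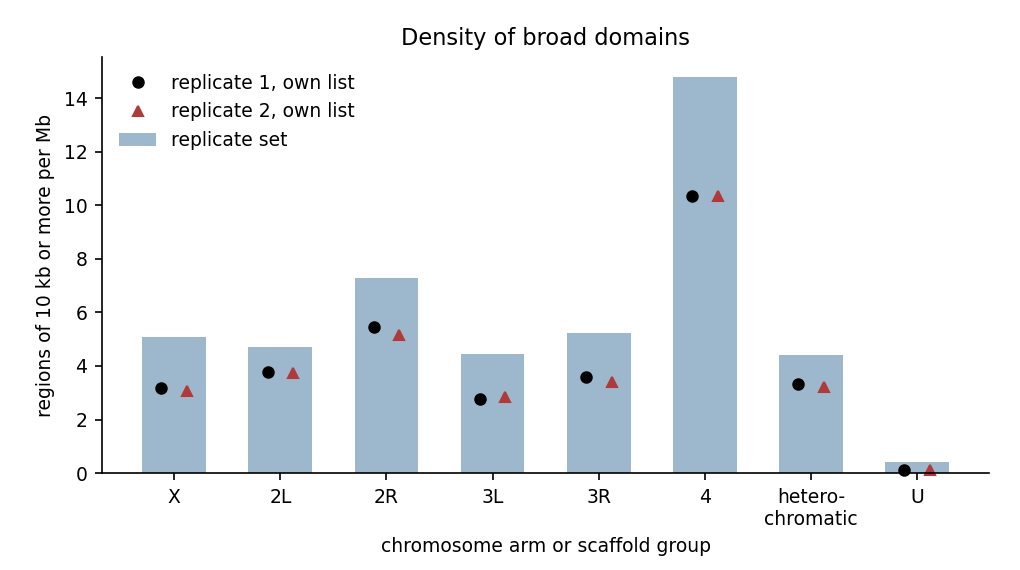
Regions of at least 10000 bp per Mb on each chromosome arm, chromosome 4, the heterochromatic scaffolds as 1 group and the unplaced sequence U, in the replicate-set list (bars) and in the own list of each ChIP replicate (points). Chromosome 4 stands highest at 14.8 per Mb and 2R leads the arms at 7.28 per Mb.

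Toward the centromere the domains were denser on 2L and 2R, and less so on 3L and 3R, where narrower regions lay there to about the same share. The 20% of each arm nearest the centromere held together 178 of 631 domains (28.2%) and 24.5% of narrower regions. In the replicates' own lists, 30.8% and 32.2% of wide regions lay there. Density in that part was 2.17 times that of the rest on 2L, 2.04 times on 2R, 1.52 times on 3L, 1.31 times on 3R and 0.957 times on X. The own lists gave 2.93 ± 0.335 on 2L, 2.45 ± 0.0838 on 2R, 1.63 ± 0.115 on 3L, 1.31 ± 0.0629 on 3R and 1.00 ± 0.101 on X (SD, n = 2 each). By share, that part held 35.2% of domains and 28.2% of narrower regions on 2L, and 33.8% and 22.6% on 2R. On 3L it held 27.5% and 28.3%, on 3R 24.7% and 23.5%, and on X 19.3% and 20.2%. Domains near the centromere of 2L were also wider (median 18783 bp against 14091 bp), and 16 of the 29 on that arm that reached 20000 bp lay there. Domains in that part scored lower than the rest at the median on 2L (1.32 against 1.57), on 3L (1.15 against 1.45) and slightly on 2R (1.46 against 1.53), but not on X (1.70 against 1.62) or 3R (1.55 against 1.52). Over all arms, 28.7% of the domains in that part were broken in both replicates, nearly the same as the 26.7% of the rest. The arms differed in direction. On 3L the shares were 50.0% of 30 domains and 27.8%, and on 2L 39.5% and 27.1%. They were 21.2% and 23.5% on 2R, 19.4% and 23.6% on 3R, and 13.6% of 22 and 32.6% on X.

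Proximal 2L held the widest domains of the list. The 3 widest were 2L 22063152 to 22123532 (60381 bp, score 1.06), 2L 22680580 to 22738518 (57939 bp, 1.38) and 2L 21837574 to 21893900 (56327 bp, 1.02). None was whole, with 3 regions in replicate 1 and 6 in replicate 2 for the first, 4 and 6 for the second, and 3 and 2 for the third. Their pieces still covered 97.2% and 95.6%, 95.2% and 93.4%, and 97.8% and 99.5% of the length. The window of 500000 bp from 22000001 was the most densely filled of 236 on the arms, with 52.0% of it in domains. Wide regions of the replicates' own lists filled 39.2% and 41.5% of it.

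The longest run of domains with no narrower region between them lay there as well. It counted 6 domains from 2L 21920606 to 22141806, a span of 221201 bp of which 93.5% was in domains. Replicate 1 held 19 regions over this span and replicate 2 held 21. Scores fell toward the middle of the run, from 1.27 at the first domain to 0.59, 0.58 and 0.72, and rose again to 1.06 and 1.27. The domain at 21990154 to 22021810 (score 0.58) overlapped more replicate regions than any other of the 696, with 5 in replicate 1 and 7 in replicate 2. It is followed by 2L 22022722 to 22063142 (score 0.72; 5 and 4 regions), which a gap of only 9 bp separates from the widest domain. No replicate region crossed that gap in either list.

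**Figure D5:**
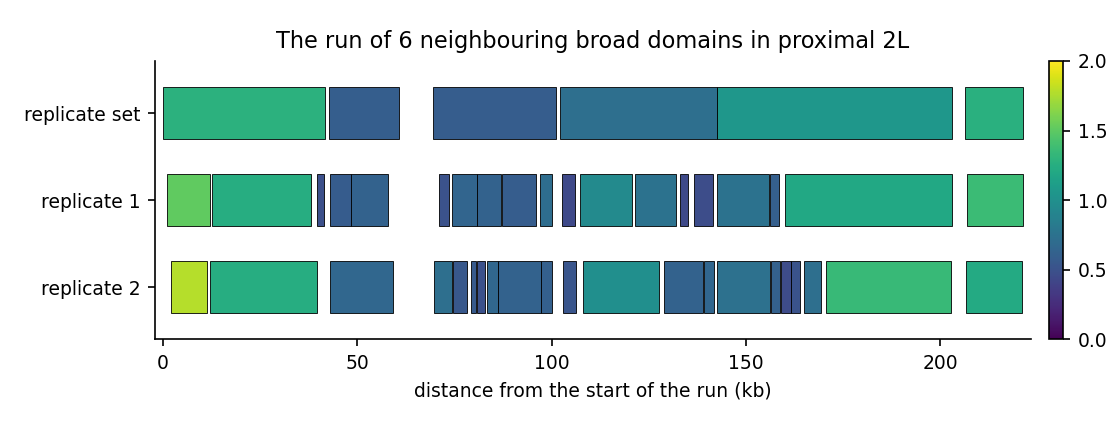
Regions of the replicate-set list and of both replicate lists over the run of 6 broad domains in proximal 2L, against the distance in kb from the start of the run, coloured by the authors' score in each list. The 6 domains correspond to 19 regions in replicate 1 and 21 in replicate 2, and the middle domains carry the lowest scores.

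Of the other 7 among the 10 widest, 2 were whole in both replicates. They were 2R 17543002 to 17585386 (42385 bp, score 1.61), covered to 99.5% and 99.3%, and 3L 16569602 to 16610546 (40945 bp, 1.98), covered to 99.1% in both, each as 1 region per replicate. At 2L 10411776 to 10459064 (47289 bp, 1.48) each replicate had 3 regions, which covered 98.5% and 97.6%. The other 4 of the 10 were also broken in both replicates. Of these, 2R 13607766 to 13650718 (42953 bp, 1.48) had 4 and 2 regions, 3R 6671226 to 6712900 (41675 bp, 1.54) had 2 and 4, 2L 4431398 to 4472438 (41041 bp, 1.55) had 3 and 4, and 2L 21920606 to 21962160 (41555 bp, 1.27) had 3 and 2. On X the widest, 13052106 to 13089576 (37471 bp, 1.59), was 1 region in replicate 1 and 2 in replicate 2. That of chromosome 4, 163704 to 204298 (40595 bp, 1.33), was whole and covered to 99.8% and 99.9%.

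On the heterochromatic scaffolds the widest domains were mostly broken. Those of 2RHet (1690774 to 1724584, 33811 bp, score 1.07), 3RHet (1897274 to 1920938, 23665 bp, 1.20) and XHet (73142 to 91432, 18291 bp, 1.26) had 2 and 2, 3 and 3, and 3 and 2 regions in replicates 1 and 2. That of 3LHet (679846 to 712436, 32591 bp, 1.28) had 1 and 2. The widest of 2LHet (162928 to 176136, 13209 bp, 1.53) was whole. On U the widest (1162010 to 1173598, 11589 bp, 0.94) was covered to 61.3% and 72.8%.

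The 5 highest-scored domains all lay on X. They were 1352124 to 1374230 (22107 bp, score 2.40), 819402 to 831134 (11733 bp, 2.37), 17742356 to 17756304 (13949 bp, 2.35), 21474386 to 21496344 (21959 bp, 2.32) and 15220472 to 15231608 (11137 bp, 2.31). Of these, 4 were whole in both replicates, and that at 819402 had 2 regions in replicate 1 and 1 in replicate 2. In the replicates' own lists replicate 1 scored them 2.31 to 2.41 and replicate 2 scored them 2.35 to 2.54. They were picked by score in a list given for the same 2 ChIP samples, so high values there are built in.

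The lowest-scored domains were fragmented. They were 3R 69800 to 81656 (score 0.51; 3 regions in replicate 1 and 5 in replicate 2), chromosome 4 1013174 to 1027844 (0.51; 4 and 2), 2L 22761348 to 22782808 (0.54; 5 and 5), 2L 8466446 to 8477734 (0.57; 3 and 1) and 2L 21990154 to 22021810 (0.58; 5 and 7). Averaged by width over its pieces, the domain at 2L 22761348 scored 1.02 in replicate 1 and 0.74 in replicate 2, above its 0.54 in the replicate set, while the other 4 scored 0.51 to 0.64 and 0.58 to 0.77. Cover could differ between the replicates at such places: at 2L 8466446 it was 92.8% in replicate 1 and 40.3% in replicate 2.

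A few domains were poorly filled by their mean cover over the 2 replicates. The least covered was U 3335722 to 3345924, at 48.7% in replicate 1 and 50.8% in replicate 2. It was followed by 2L 22761348 to 22782808 (56.1% and 52.7%), 3L 24518270 to 24531856 (58.9% and 60.6%), X 9446320 to 9466002 (53.8% and 66.2%) and 2L 4933116 to 4947112 (45.9% and 75.5%). The one on 3L had 1 region in each replicate, so a domain counted as whole can still be much wider than its match.

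Broad domains had slightly closer neighbours than narrower regions. The nearest region lay a median of 958 bp away (quartiles 304 and 2559.5 bp), against 1247 bp (403 and 3581 bp) for narrower regions and 1175 bp for those of 5000 to under 10000 bp. In the replicates' own lists the medians were 1405 and 1450 bp for wide regions and 1683 and 1700 bp for the others. A neighbour within 500 bp was found for 236 domains (33.9%) and 28.6% of narrower regions. The quartiles overlapped throughout.

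What lay beside a domain was usually narrow. The regions next to a domain were 3959 bp wide and scored 1.02 at the median, nearly the same as beside regions of 5000 to under 10000 bp (3869 bp and 1.02). They were themselves broad domains in 16.6% of cases, against 12.1% beside regions of 5000 to under 10000 bp and 10.8% beside narrower regions as a whole. Of the 696 domains, 489 had a narrower region or the end of a sequence on each side. There were 73 adjacent pairs, 17 runs of 3, 1 run of 4 (2R 11418308 to 11586018) and the run of 6. Of the 19 runs of 3 or more, 10 lay on 2R.

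The closest pairs were almost continuous. After the 9 bp on 2L, the next gaps were 13 bp at 2R 1577540 to 1577554, 21 bp at 3R 14500692 to 14500714, 77 bp at 3L 23710396 to 23710474 and 109 bp at 3R 14034956 to 14035066. In none of these 5 did a replicate region cross the gap. Scores on both sides differed by up to 0.85 within a pair, as at 3R 14024002 to 14034956 (0.99) and 3R 14035066 to 14053766 (1.84).

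Other domains stood alone. Only 15 (2.16%) had no region within 20000 bp, against 5.25% of narrower regions. Among regions of 5000 to under 10000 bp the share was nearly the same as in the domains, at 2.57%. The most isolated domain on the arms was 3L 18097752 to 18108942 (11191 bp, score 1.52), with 190865 bp to its nearest neighbour. It was followed by 3R 9783064 to 9794150 (62111 bp away, score 1.75), 2R 8641426 to 8652920 (58367 bp, 1.43), 3R 10331602 to 10342636 (49011 bp, 1.38) and 2L 3371820 to 3385214 (48819 bp, 1.42). Their widths, 11035 to 13395 bp, were all below the median of the domains, and 3 of the 5 were whole in both replicates.

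Domains were unevenly spaced along the arms. The median distance between successive domains was 44679 bp on 2R and 47697 bp on 2L, against 92032 bp on 3L, 99817 bp on 3R and 122025 bp on X. Of 236 windows of 500000 bp, 40 (16.9%) held no domain centre, the median was 2 and the highest count was 12. The longest stretches without a domain were 3L 14031865 to 15489649 (1457.8 kb), 2L 8526197 to 9910843 (1384.6 kb), 3L 9729933 to 11048343 (1318.4 kb), 2R 14862221 to 16131355 (1269.1 kb) and 2L 6984361 to 8202357 (1218.0 kb). They were not empty, since 20 to 55 narrower regions lay in each. The own lists of the replicates held no region of 10000 bp or more in them, except 1 of replicate 1 in the stretch on 2R.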

How the data were processed

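The deposited values were 3 lists of enriched regions, 1 per ChIP replicate and 1 for the replicate set, each region with a score given by the authors. Per the file headers, positions follow FlyBase release 5. The submitters' processing notes name Bowtie 0.12.7. How regions were called, how the score was computed and whether the inputs entered it is not given in the sources used here. The narrowest region was 1001 bp in the replicate set and 1301 bp in both replicate lists. Read depth is unknown, so no floor is given, and weak stretches may be absent for lack of reads. Samples were grouped by title, although the labels conflict: ChIP replicate 2 is described as input, and the descriptions of ChIP replicate 1 and input replicate 1 name both kinds of DNA. The input samples were not analysed here.

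The depleted region was left out and 3 replicate-set regions were ended at the sequence length, which changed no membership. Overlap was counted from 1 bp. A break is the gap between successive replicate regions at a domain. The 20% of an arm nearest the centromere was taken at high coordinates on X, 2L and 3L and at low ones on 2R and 3R, by region centre. Members and measures were chosen with earlier results of these data known. Named domains are the 10 widest, the widest per chromosome, the 5 highest- and 5 lowest-scored, the 5 most broken, least covered, closest in pairs or most isolated, and the 3 on each side of the limit, plus the 5 longest stretches. No test was run, as the members were chosen by width in the same list. With 2 replicates, an SD describes only their spread, which may be technical. Functions were tested on simulated data. Tools were matplotlib 3.10.9, scipy 1.17.1, pandas 2.3.3, numpy 2.4.6 and Python 3.11.15.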

Additional observations from a re-analysis of the deposited data

How the results depend on the processing

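Of 21 alternatives to 8 values, besides 4 that leave out a replicate, 5 moved a value by less than the replicate SD or its interval, or a count by less than 1.5 times. The number of domains was 783 after merging regions within 200 bp, 631 on the arms and 480.5 in the replicates' own lists. The other 16 moved a value further. Only the score difference was checked for a change of sign, and it kept its sign. The share of cover in domains was 46.9% at a width of 8000 bp, 19.6% at 15000 bp and 41.7% after merging. The share of whole domains was 58.6% with replicate regions merged within 200 bp and 39.6% at 15000 bp. With either replicate left out it was 57.5% to 60.2%, by construction, since 1 list then has to match. Cover by replicate regions was 92.2% to 93.1% with either replicate left out and 94.0% at 15000 bp. The score difference was 0.31 against narrower regions present in both replicates, 0.67 at 15000 bp and 0.77 on the arms. The nearest gap of the domains was 1682 bp among neighbours present in both replicates and 1321 bp after merging. That of narrower regions was not computed at these settings, so the comparison between them was not repeated. The proximal share was 26.8% without 2L, 30.9% by sequence and 16.8% in the nearest 10%, where 12.2% of narrower regions lay. The X ratio was 0.896 by sequence and 0.896 at 15000 bp. What lies behind these moves was not tested, apart from what each setting removes. No paired analysis was possible because only the ChIP samples have lists, and no test was run. With depth unknown, a break cannot be read as absence of signal.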
